A study of Mus musculus with 5 samples.

Results

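Long H3K27me3 domains were the stretches of at least 10 kb in which trimethylated lysine 27 of histone H3 was enriched over whole cell extract (WCE) in secondary mouse embryonic fibroblasts. The autosomes (chromosomes 1 to 19, build mm8) were cut into bins of 2 kb, and a bin was called when it held at least 20 distinct H3K27me3 reads and its share of the library was at least 3 times its share of the summed WCE reads, with 1 read added to each count. Called bins with at most 1 uncalled bin between them were joined. This gave 10442 regions, of which 1618 (15.5%) were domains of 10 kb or more. The H3K27me3 and WCE values therefore chose the domains and are given as descriptions without a test. RNA Pol II and E2F4 reads played no part in the choice.

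The fibroblasts came from chimeric embryos, collected at 13.5 days post coitum, that had been made by injecting induced pluripotent stem (iPS) cells into BDF2 blastocysts. The iPS cells carried doxycycline-inducible Klf4, Sox2 and Oct4 and a selectable cassette at Oct4, and had been derived in medium conditioned by Wnt3a. Puromycin at 2 µg/ml for 48 h selected the fibroblasts descended from the iPS cells, and every library was made from cells of this kind. The labels give no doxycycline treatment, and they do not give the number of embryos. There was 1 library for each of H3K27me3, RNA Pol II (antibody 8WG16) and E2F4, and there were 2 of WCE, the chromatin without immunoprecipitation. The intervals and p-values below hence cover counting error within 1 library and compare places in the genome, not conditions or cultures. Gene names and sequences of the build mm8 were not used here, so domains are named by position and the fibroblast label was not checked against marker genes.

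H3K27me3 is written by the Polycomb repressive complex PRC2, whose catalytic subunit is EZH2 or EZH1, and is read by PRC1. It covers silent developmental genes, and clusters of such genes can carry the mark without a break over long distances. RNA Pol II transcribes protein-coding genes, and 8WG16 recognises mainly the unphosphorylated repeat tail of its largest subunit, the form that gathers at promoters. E2F4 is a DNA-binding partner of the pocket proteins and sits mostly at promoters of cell cycle genes.

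The distinct autosomal reads numbered 9483163 for H3K27me3, 3111606 for RNA Pol II and 1971874 for E2F4. The WCE replicates stood apart in depth, with 417799 reads in replicate 1 and 11226593 in replicate 2, so that replicate 1 made up 3.59% of the control. They also differed between chromosomes: the density relative to the autosomal mean ran from 0.939 to 1.04 in replicate 1 and from 0.825 to 1.29 in replicate 2. Against WCE replicate 2 alone the same rule gave 1578 domains, and against replicate 1 alone it gave 291. With replicate 1 alone a bin without a single WCE read needs 68 H3K27me3 reads to pass the ratio, compared with 2 reads against the sum of both.

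The domains covered 31.97 Mb, or 1.42% of the mapped autosomes, and held 11.2% of the H3K27me3 reads (1061323) and 2.06% of the WCE reads. They took up 50.9% of all called bins, while 2.43% of the 1122218 mapped bins were called. Domain length had a median of 14 kb, the middle 50 percent of domains lay between 10 and 22 kb, and the longest measured 144 kb. Lengths of 50 kb or more were reached by 71 domains and lengths of 100 kb or more by 8. Shorter regions were far more numerous, with 5708 of 2 kb and 3116 of 4 to 8 kb. The numbers showed no break at the length limit: 561 regions measured 8 kb and 413 measured 10 kb.

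**Figure D1:**
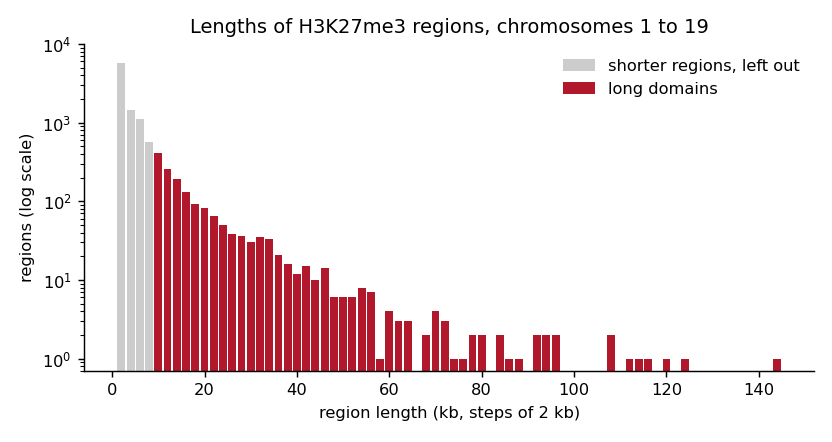
Number of H3K27me3 regions (log scale) at each length in kb, in steps of 2 kb, with the 1618 long domains in red and the shorter regions in grey. The counts fall smoothly through the limit of 10 kb, from 561 regions of 8 kb to 413 of 10 kb, and reach 144 kb.

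Read density is given as reads per kb per 10000000 distinct autosomal reads of the library, on which scale the mean over mapped bins is 4.46 for each library. H3K27me3 density in the domains had a median of 28.8 and ran from 9.60 to 133.7. Taken over the whole domain, the ratio to WCE had a median of 4.60 and ran from 2.51 to 12.8, and it was at least 3 in 1587 of the 1618 domains. It was at least 3 against WCE replicate 2 alone in 1569 domains and against replicate 1 alone in 1412, where the median domain held 2 reads of that replicate. Density increased with length, from 28.7 in domains of 10 and 12 kb to 40.4 in those of 50 kb or more.

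The 5 longest domains lay on 4 chromosomes. The longest, chr19:44764001-44908000 (144 kb), held 5627 H3K27me3 reads, 913 WCE reads (31 of them from replicate 1), 55 RNA Pol II reads and 122 E2F4 reads, and its bins ran from 5 to 319 H3K27me3 reads. No RNA Pol II or E2F4 region overlapped it, and the nearest were 45.5 and 76 kb away. Next came chr7:79368001-79492000 (124 kb) with 6096 H3K27me3 and 923 WCE reads, the highest H3K27me3 count of any domain, and 1 E2F4 region. It was followed by chr5:139748001-139868000 (120 kb), with 5766 H3K27me3 and 975 WCE reads. The last of the 5 were chr4:136132001-136248000 (116 kb, 4192 and 970 reads) and chr19:45260001-45374000 (114 kb, 5340 and 878 reads). RNA Pol II regions were absent from all 5, and each contained at least 1 gap bin. This absence did not extend to long domains in general. An RNA Pol II region overlapped 6 of the 71 domains of 50 kb or more (8.451%, exact interval 3.165 to 17.49). In domains of 10 and 12 kb the share was 3.892% (2.558 to 5.651). These intervals overlap, and the shares were not tested against each other. The 108 kb domain chr11:96076001-96184000 held 12 RNA Pol II regions.

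**Figure D2:**
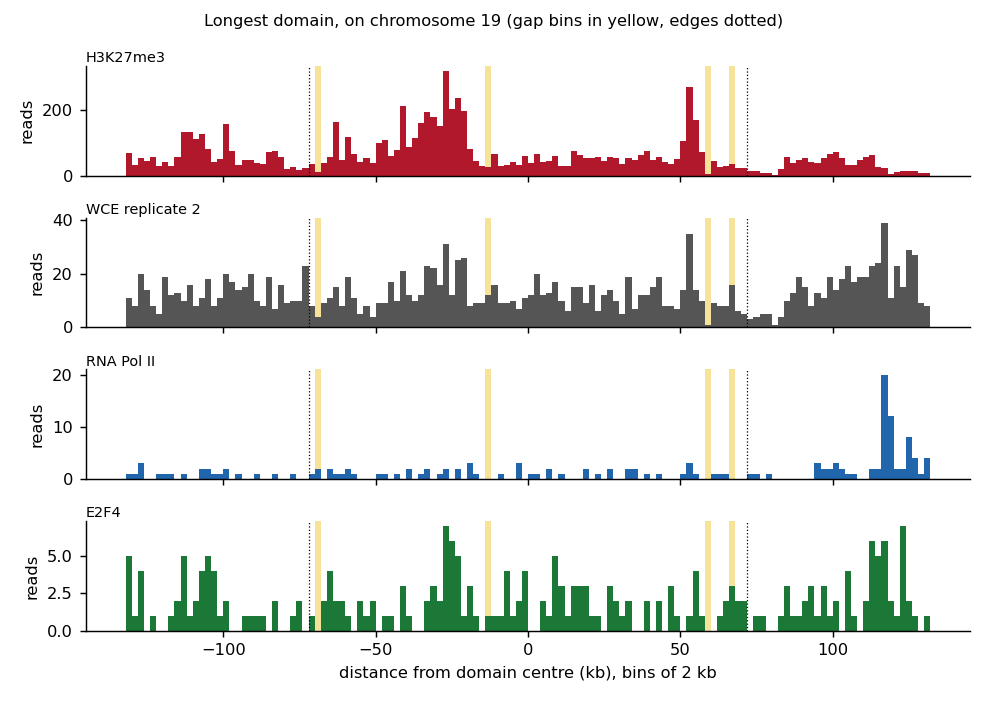
Distinct reads per 2 kb bin in the H3K27me3, WCE replicate 2, RNA Pol II and E2F4 libraries across the longest domain (144 kb, chromosome 19) and its surroundings, against distance from the domain centre in kb, with the edges dotted and the 4 gap bins in yellow. H3K27me3 reads form several high blocks of up to 319 reads on a lower plateau, and marked bins lie beyond both edges.

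The 5 densest domains were shorter, between 10 and 26 kb, and none had a gap. The highest density, 133.7, was at chr9:62932001-62956000 (24 kb), where 3042 H3K27me3 reads stood against 292 WCE reads and the bins ran from 41 to 577. The next were chr15:85404001-85414000 (density 121), chr6:30122001-30136000 (108), chr15:98616001-98634000 (106.7) and chr5:29796001-29822000 (100.5). Of these, chr6:30122001-30136000 alone overlapped an RNA Pol II region. At the lower end of the rule, the thinnest domains of 10 kb were chr10:120392001-120402000 (91 H3K27me3 and 32 WCE reads, density 9.60), chr6:5770001-5780000 (96 and 39 reads, 10.1) and chr9:14834001-14844000 (99 and 48 reads, 10.4), each with 2 gaps among its 5 bins. Just outside it, the densest regions of 8 kb were chr2:121986001-121994000 (881 and 113 reads, density 116), chr15:76342001-76350000 (99.2) and chr11:98162001-98170000 (98.2). The length limit thus left out short blocks of high density and kept longer ones of low density.

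The mark was uneven inside the domains. The variance of the bin counts divided by their mean had a median of 12.2 over domains (25% to 75% range 3.54 to 32.2), against 2.09 for WCE replicate 2 in the same bins and 1 for counting noise. The highest bin of a domain held a median of 1.78 times the domain mean. It was an outermost bin in 288 domains (17.8%), whereas outermost bins made up 26.7% of the bins of a domain on average. H3K27me3 density in the central 20% of a domain's length was 1.33 times that in the outer 20% at either end, and WCE replicate 2 differed by 1.11 times and replicate 1 by 1.12 times.

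RNA Pol II density in the central 20% was 1.32 times that in the outer parts (95% interval 1.28 to 1.37). In the 1532 domains without an RNA Pol II region this value was 1.06 (1.01 to 1.11), below that of WCE replicate 2 in all domains. For E2F4 it was 1.15 (1.11 to 1.18).

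Inner gaps were common and shallow. At least 1 gap bin was present in 1137 of the 1618 domains (70.3%), 481 had none, and the most in any domain was 9. The 2068 gap bins made up 12.9% of the bins in the domains. Of these, 1653 (79.9%) held enough H3K27me3 reads and failed only on the ratio to WCE, 91 (4.40%) failed only on the reads, and 324 (15.7%) failed on both. A gap bin held a median of 31 H3K27me3 reads, compared with 41 in the adjoining bins and 5 in all mapped bins, and 99.2% of gap bins lay above the latter value. The ratio to WCE was between 2 and 3 in 73.7% of gap bins and under 1 in 0.532%.

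In the gaps the mark and the extract moved in opposite directions. Summed over all gaps, H3K27me3 density was 0.727 times that of the adjoining bins, WCE replicate 2 was 1.36 times and WCE replicate 1 was 1.53 times. In the 91 gaps with too few reads only, H3K27me3 and WCE replicate 2 were both low, at 0.412 and 0.410 times the adjoining bins. Their parts in the gaps cannot be told apart from a rule that uses both counts.

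RNA Pol II density in gap bins was 1.18 times that of the adjoining bins (95% interval 1.13 to 1.24, 2692 and 4547 reads). This was below WCE replicates 2 and 1 in the same gaps (1.36 and 1.53 times). Gaps with an RNA Pol II region in the gap or either adjoining bin were then set aside. In the 2043 gaps left, the RNA Pol II value was 1.00 (0.943 to 1.06). For E2F4 the values were 1.07 (1.02 to 1.11) and 1.04 (0.999 to 1.09). The kinds of gap differed in direction. Gaps that failed only on the ratio stood at 1.26 for RNA Pol II, 1.15 for E2F4 and 1.455 for WCE replicate 2. Those that failed only on the reads stood at 0.706, 0.570 and 0.410, and those that failed on both at 0.651, 0.68 and 0.951. An RNA Pol II region touched 14 gap bins (0.677%, exact 95% interval 0.371 to 1.13) and 132 called bins of the domains (0.949%, 0.794 to 1.12), and an E2F4 region touched 7 gap bins (0.339%, 0.136 to 0.696) and 65 called bins (0.467%, 0.361 to 0.595). These intervals overlap, and the shares of gaps and marked bins were not tested against each other.

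Longer domains, which hold more bins, more often had a gap: 62.6% of the domains of 10 and 12 kb had at least 1 gap, and 93.0% of those of 50 kb or more. Unbroken runs of called bins had a median of 10 kb for the longest run in a domain and reached 74 kb. Such a run of 10 kb or more was present in 964 domains (59.6%). The domains with the most gaps were chr8:123634001-123704000 (70 kb, 9 gaps, 1865 H3K27me3 and 649 WCE reads), chr4:147562001-147622000 (60 kb, 8 gaps, 1372 and 415 reads) and chr11:96076001-96184000 (108 kb, 8 gaps, 4811 and 1399 reads).

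The H3K27me3 step was under 2 times at most of the 3236 edges. Edges lie on the grid of 2 kb bins, so a sharp boundary inside a bin cannot be told apart from a slope. The first 2 kb inside held 1.73 times the H3K27me3 reads of the first 2 kb outside, with medians of 40 and 25 reads. The step was at least 2 times at 34.6% of edges and at least 4 times at 8.34%, and at 434 edges (13.4%) the bin outside held more reads than the bin inside. Outside bins mostly failed on the ratio alone (68.3%), 56.7% of them had a ratio between 2 and 3, and 3.52% had a ratio under 1. WCE density ran the other way across the edge, with 0.808 times as many reads inside as outside. The first bin inside had to pass the ratio to WCE, and outside bins mostly failed on it. The rule therefore favours lower WCE and more H3K27me3 inside the edge than outside.

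Against the density 15 to 20 kb outside, H3K27me3 stood at 1.14 times at 5 to 10 kb outside, 1.31 at 2 to 5 kb, 1.43 at 1 to 2 kb and 1.68 in the last kb before the edge. Inside it was 2.40 times in the first kb, 2.97 in the next, 3.43 at 2 to 5 kb and 3.98 at 5 to 10 kb. WCE replicate 2 was 1.02 in the last kb outside, 0.803 in the first kb inside and 1.01 at 5 to 10 kb inside. Its dip was thus confined to the first 2 kb inside among the bands measured. These 2 kb are called bins, chosen in part for low WCE. WCE replicate 1 was 1.04 in the last kb outside, 0.730 in the first kb inside and 0.832 at 5 to 10 kb inside.

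RNA Pol II density was lower in each band nearer to the edge than 10 kb outside, but not in a steady course from farther out. Relative to 15 to 20 kb outside it was 1.10 (95% interval 1.08 to 1.12) at 10 to 15 kb outside, 0.791 (0.777 to 0.806) at 5 to 10 kb outside, 0.658 (0.644 to 0.672) at 2 to 5 kb, 0.421 (0.405 to 0.437) in the last kb and 0.297 (0.284 to 0.310) in the first kb inside. From 5 to 10 kb inside it was 0.356 (0.346 to 0.366). Outside RNA Pol II regions the same course was flatter, with 0.970 (0.943 to 0.999) at 10 to 15 kb outside, 0.871 at 5 to 10 kb outside, 0.664 (0.632 to 0.699) in the last kb, 0.576 (0.546 to 0.608) in the first kb inside and 0.616 at 5 to 10 kb inside. E2F4 density was 0.859 in the last kb outside, 0.731 (0.701 to 0.762) in the first kb inside, where WCE replicate 2 was 0.803, and 0.857 at 5 to 10 kb inside. Outside E2F4 regions it stayed between 0.911 and 1.07 in every band.

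**Figure D3:**
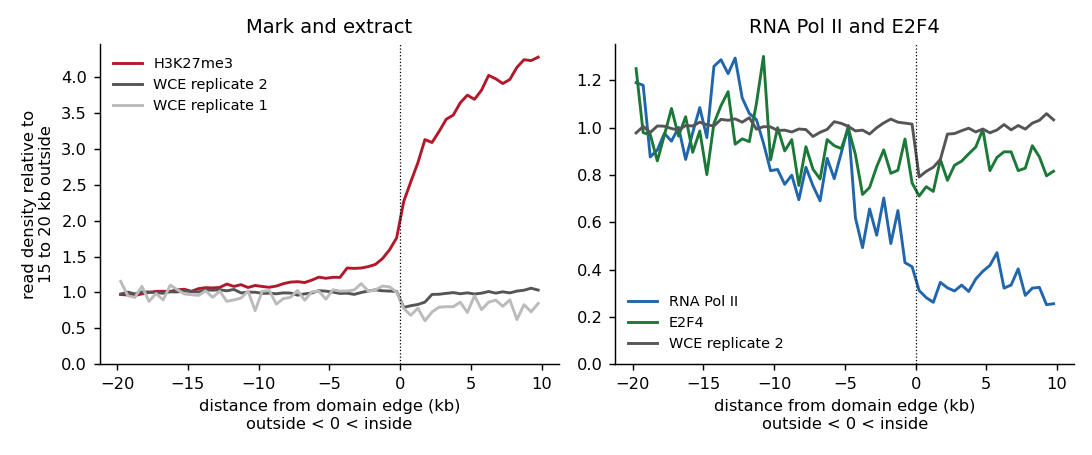
Mean read density around the 3236 domain edges in steps of 0.5 kb, relative to the density 15 to 20 kb outside, against distance from the edge in kb (negative outside, positive inside), for H3K27me3 and both WCE replicates on the left and RNA Pol II, E2F4 and WCE replicate 2 on the right. H3K27me3 climbs through the edge to about 4 times at 5 to 10 kb inside, RNA Pol II drops over the last 5 kb outside to 0.297 in the first kb inside, and WCE replicate 2 dips to 0.803 there.

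An RNA Pol II region lay within 5 kb outside of 111 edges (3.43%). The H3K27me3 step at these edges was 1.98, compared with 1.73 at the other edges. With an E2F4 region in the same range (59 edges) it was 1.84, compared with 1.73 without.

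Domains lay close together. The nearest other domain was a median of 32 kb away, measured between facing edges, and 275 domains (17.0%) had another 4 kb away, the smallest distance the joining allowed. Another domain was within 20 kb of 684 domains (42.3%) and within 100 kb of 1050 (64.9%, exact 95% interval 62.5 to 67.2), whereas 9.87% of all mapped bins, the bins of the domains included, were within 100 kb of a domain. With a ratio of at least 4 in place of 3 this share was 51.7% (5.44% of bins), and against WCE replicate 1 alone, which left 291 domains, it was 38.1% (2.24% of bins).

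Domains linked over at most 100 kb formed 340 clusters of 2 or more. Of these, 180 were pairs, 48 held at least 5 domains (310 domains, 19.2%) and 3 held at least 10, and 568 domains stood alone. The cluster with the most domains, chr2:164654001-165424000, held 13 domains over 770 kb, with 41.8% of the span in domains. It was followed by chr12:112554001-112990000 with 12 domains over 436 kb (50.5%) and chr8:123574001-123980000 with 11 domains over 406 kb (70.4%). The first of these spans held 6 RNA Pol II regions and 1 E2F4 region, that on chromosome 12 held 0 and 1, and that on chromosome 8 held 6 and 3. RNA Pol II regions overlapped 1 of the 13 domains on chromosome 2 and 3 of the 11 on chromosome 8.

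The 710 intervals between neighbours in a cluster summed to 18.51 Mb. Shorter H3K27me3 regions lay in 343 of them (48.3%), an RNA Pol II region in 95 (13.4%) and an E2F4 region in 59 (8.31%). With the shorter regions left out, H3K27me3 density in the intervals was 12.2, or 2.73 times the autosomal mean. The corresponding value was 1.57 for WCE replicate 2, 0.895 for WCE replicate 1, 1.22 for RNA Pol II and 1.20 for E2F4. Intervals between clustered domains were thus above the mean in the mark by more than in any other library.

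Clustered domains were longer than those standing alone, with medians of 16 and 12 kb, and more often had a gap (74.7% and 62.1%). The summed RNA Pol II density inside was 0.295 times that of the flanks (0.290 to 0.301) for clustered domains and 0.478 times (0.467 to 0.489) for those alone. For E2F4 the values were 0.834 (0.818 to 0.850) and 0.976 (0.952 to 1.00). An RNA Pol II region overlapped 47 clustered domains (4.48%, exact 95% interval 3.31 to 5.91) and 39 alone (6.87%, 4.93 to 9.27). These intervals overlap, but the shares were not tested against each other and are not adjusted for the difference in length. The domains farthest from any other were chr3:154262001-154276000 (24528 kb), chr6:142914001-142924000 (15172 kb) and chr4:84672001-84682000 (14122 kb). The first held 29 RNA Pol II reads, with 11 in its flanks, 5.27 times their density (95% interval 2.56 to 11.7). For the second the counts were 3 and 2 (4.50 times, 0.516 to 53.9). The last held 0 reads, with 8 in its flanks (interval 0 to 1.64 times).

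Chromosomes differed several-fold in domains. Chromosome 11 had 1.30 domains per mapped Mb and 2.83% of its length in domains, and chromosome 16 had 0.265 per Mb and 0.503%. Chromosome 2 held the most domains, 190, and chromosome 19 the longest. Over the 19 autosomes, domains per Mb had a Spearman rho of 0.69 with RNA Pol II regions per Mb, 0.69 with E2F4 regions per Mb and 0.62 with the relative density of WCE replicate 2. These are descriptions of points that share their libraries, the WCE control used in both calls, and the base composition of each chromosome.

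**Figure D4:**
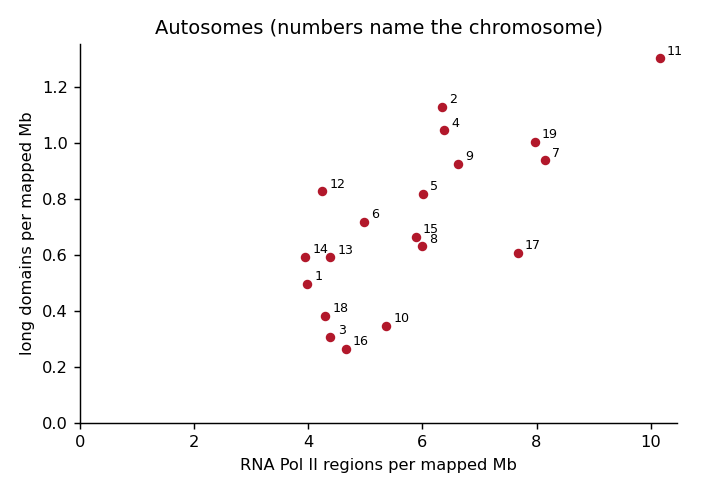
Long H3K27me3 domains per mapped Mb against RNA Pol II regions per mapped Mb, 1 point for each of the 19 autosomes, labelled with the chromosome number. Chromosome 11 is highest on both axes (1.30 domains and 10.2 RNA Pol II regions per Mb), and chromosome 16 has the fewest domains per Mb (0.265).

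RNA Pol II and E2F4 regions were called in bins of 500 bp against the summed WCE (exact conditional binomial test, Benjamini-Hochberg adjusted p under 0.01, ratio of at least 3, bins joined over at most 1 bin). This gave 12961 RNA Pol II regions from 3.39% of the bins tested and 6333 E2F4 regions from 0.736%. RNA Pol II regions overlapped 86 domains (5.32%, exact 95% interval 4.27 to 6.52), compared with 8.29% of consecutive autosomal windows of 14 kb, the median domain length. E2F4 regions overlapped 68 domains (4.20%, 3.28 to 5.30), compared with 4.29% of such windows, a value inside the interval. The windows are not matched to domain lengths, which reach 144 kb, so these comparisons are rough. The E2F4 share was 2.7% (1.6 to 4.2) in domains of 10 and 12 kb and 9.86% (4.06 to 19.3) in those of 50 kb or more. Both kinds of region were present in 29 domains, RNA Pol II regions alone in 57, E2F4 regions alone in 39, and neither in 1493. Against WCE replicate 1 alone, with 6394 RNA Pol II and 1126 E2F4 regions, the shares were 3.44% (1.66 to 6.23) and 1.37% (0.376 to 3.48) of 291 domains, compared with 4.31% and 0.783% of the windows, both inside these intervals.

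The nearest RNA Pol II region was a median of 49 kb from a domain (25% to 75% range 19 to 99.5 kb), compared with 138 kb for all mapped bins. It was within 100 kb of 75.5% of the domains and of 43.4% of mapped bins. For E2F4 the median distance was 80.5 kb, compared with 234 kb, and 59.2% of the domains and 31.8% of bins had a region within 100 kb. A domain is wider than a bin and so reaches farther to each side. Regions of 2 kb, the width of a bin, had medians of 65.5 kb to RNA Pol II and 103.5 kb to E2F4, and those of 4 to 8 kb had 59.5 and 93.5 kb. The nearest signal was RNA Pol II for 1099 domains and E2F4 for 161, and both were equally far for 358, with RNA Pol II regions 5.78 and E2F4 regions 2.82 per Mb on the autosomes.

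**Figure D5:**
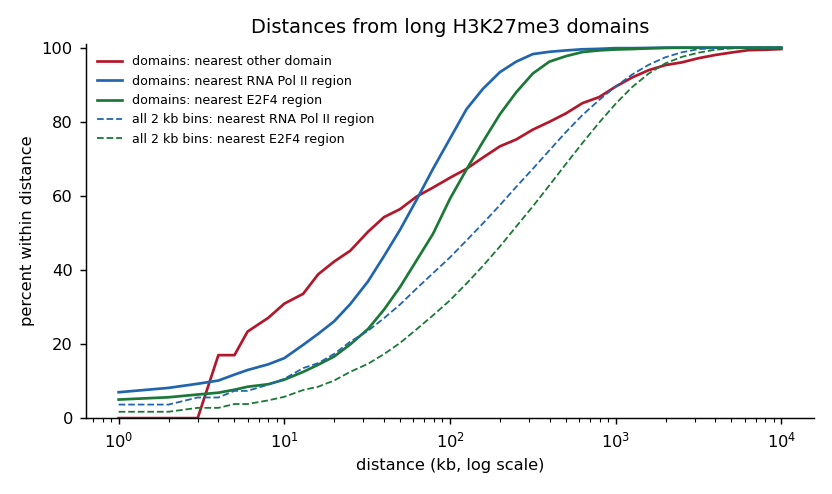
Percent of the 1618 domains (solid lines) whose nearest other domain, RNA Pol II region or E2F4 region lies within the distance on the horizontal axis (kb, log scale), with the same for all mapped 2 kb bins dashed. At 100 kb the domains stand at 64.9% for another domain, 75.5% for RNA Pol II and 59.2% for E2F4, and the bins at 43.4% and 31.8%.

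Of the 112 RNA Pol II regions that overlapped domains, 78 (69.6%) lay more than 2 kb from both edges, where 79.8% of the domain length lies, 6 crossed an edge and 14 touched a gap bin. Their median length was 500 bp, compared with 1000 bp for all RNA Pol II regions. H3K27me3 density at the bins they touched was a median of 1.33 times the domain mean, and 32 of the 112 (28.6%) lay below that mean. Of the 71 E2F4 regions in domains, 61 (85.9%, compared with the same 79.8%) lay more than 2 kb inside, 1 crossed an edge and 16 (22.5%) had less H3K27me3 than the domain mean, with a median of 1.42 times. An E2F4 region overlapped 28 of the RNA Pol II regions. The domain means include the outer bins, where the mark was thinner. These H3K27me3 values are adjusted neither for position in the domain nor for WCE.

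Over all domains together, RNA Pol II density was lower inside than in the flanks. The density was 2.41 inside and 6.92 in the flanks, taken from 5 to 20 kb beyond both edges with other H3K27me3 regions left out, so that the ratio was 0.349 (95% interval 0.344 to 0.354, 23986 reads inside). WCE replicate 2 had a ratio of 0.966 and replicate 1 of 0.820 in the same places. The lower RNA Pol II density was not particular to long domains, with ratios of 0.434 for regions of 2 kb and 0.531 for those of 4 to 8 kb. WCE replicates 2 and 1 were also lower there, at 0.755 and 0.592 for 2 kb and 0.966 and 0.678 for 4 to 8 kb. Within the domains the RNA Pol II ratio was 0.439 at 10 and 12 kb, 0.234 at 30 to 48 kb and 0.269 at 50 kb or more. Much of the RNA Pol II difference of the domains lay in few places, since 63.2% of the flank reads and 29.8% of the domain reads fell in RNA Pol II regions. With these regions left out on both sides the ratio of the domains was 0.659 (0.646 to 0.672). For E2F4 the density was 4.90 inside and 5.61 in the flanks, a ratio of 0.873 (0.860 to 0.886), between those of the WCE replicates. This direction turned to 1.04 (1.02 to 1.05) with E2F4 regions left out, to 1.03 with a ratio of at least 4 for H3K27me3 bins and to 1.46 against WCE replicate 1 alone, where the RNA Pol II ratio was 0.841.

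Domain by domain, most differences were within counting error. RNA Pol II reads were fewer inside than in the flanks in 353 domains (21.8%, compared with 13.4% of all H3K27me3 regions) and more in 85 (5.25%, compared with 3.82%), while 1180 did not pass (exact conditional binomial test, Benjamini-Hochberg adjusted p under 0.05 over the 10442 regions). The median domain had 0.833 times the density of its flanks, compared with 0.633 for all regions, and held 7 RNA Pol II reads. E2F4 reads were fewer in 131 domains (8.10%, compared with 3.52% of all regions) and more in 76 (4.70%, compared with 3.54%), with a median ratio of 1.07 and a median of 14 reads. Longer regions hold more reads, so a given ratio passes this test more easily in domains than in shorter regions. Of the 353 domains with fewer RNA Pol II reads, 124 also had fewer E2F4 reads and 4 had more, and of the 85 with more RNA Pol II reads, 26 had more E2F4 reads and 0 had fewer. Against WCE replicate 1 alone, 58 of 291 domains (19.9%, compared with 11.8% of all 2802 regions) had fewer RNA Pol II reads and 42 (14.4%, compared with 20.1%) more. For E2F4 21 (7.22%, compared with 2.61%) had fewer and 68 (23.4%, compared with 23.5%) more.

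The 5 densest domains in RNA Pol II among those with such a region were chosen for that density, so their RNA Pol II values are given without a test. The highest RNA Pol II density was 162 at chr18:11046001-11058000 (12 kb), with 606 reads inside and 56 in the flanks, 27.1 times their density (95% interval 20.6 to 36.2). It also held 583 H3K27me3, 136 WCE and 63 E2F4 reads and no gap. Then came chr14:66182001-66194000, with 425 RNA Pol II reads against 34 in the flanks (25 times), 98 E2F4 reads against 26 (7.54 times) and 954 H3K27me3 reads. At chr7:142466001-142476000 there were 297 and 92 RNA Pol II reads (9.69 times), at chr12:104864001-104880000 there were 390 and 66 (10.3 times), and at chr15:102836001-102852000 there were 293 and 143 (2.05 times). E2F4 reads, which had no part in this choice, were more numerous inside than in the flanks in the first 4 of these (exact binomial test, adjusted p between 1.10e-22 and 5.05e-06). H3K27me3 density lay between 45.3 and 83.8 in the first 4, above the 35.0 of all domains together, and was 32.4 in the one on chromosome 15, which had 2 gaps and a ratio to WCE of 3.11.

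The domain with the most RNA Pol II reads was chr11:96076001-96184000, already given for its 8 gaps. Its 108 kb held 1801 RNA Pol II reads, against 14 in 23 kb of usable flank, 27.4 times the flank density. E2F4 had 301 and 19 reads there, 3.37 times the flank density. The domain also held 12 RNA Pol II regions, the most in any domain. It contributed 1801 of the 9924 RNA Pol II reads in the 86 domains with a region.

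Among domains with an E2F4 region, the highest E2F4 density was 45.2 at chr11:69750001-69762000 (12 kb), with 107 E2F4 reads inside and 158 in the flanks, 1.41 times their density. RNA Pol II there had 18 reads inside and 449 in the flanks, 0.0835 times (0.0490 to 0.134), with densities of 4.82 and 57.7. At chr7:45042001-45060000 both were lower inside, with 36 and 361 RNA Pol II reads (0.0942 times) and 115 and 171 E2F4 reads (0.635 times). The densities there were 6.43 inside and 68.25 in the flanks for RNA Pol II, and 32.4 and 51.0 for E2F4. In both of these domains RNA Pol II density inside was above the 2.41 of all domains together, and the flanks were dense. At chr8:90846001-90856000 both were higher inside, with 116 and 53 RNA Pol II reads (6.13 times) and 67 and 33 E2F4 reads (5.68 times). The other 2 of these 5 were chr14:66182001-66194000 and chr12:104864001-104880000, named above for RNA Pol II. Among the 5 longest domains, the lowest RNA Pol II ratio to the flanks was at chr5:139748001-139868000, 0.0296 times (0.0215 to 0.0401). It held 53 reads inside its 120 kb and 224 in 15 kb of usable flank. E2F4 had 119 and 154 reads there, 0.0966 times. RNA Pol II density was 1.42 inside, the highest of the 5, where the others ran from 1.19 to 1.38. In the flanks it was 47.99, compared with 0.536 to 2.66 for the others. The low ratio thus lay in dense flanks, not in a lower density inside.

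Domains with denser H3K27me3 more often held the other signals. With the domains ordered by H3K27me3 density and split into 4 groups of 403 to 406, from low to high density, an RNA Pol II region was present in 0.493%, 3.72%, 4.70% and 12.3%, and an E2F4 region in 0.246%, 1.74%, 3.71% and 11.1%. The nearest RNA Pol II region was a median of 60.5, 59.5, 42.8 and 33 kb away. At least 1 gap was present in 90.4%, 82.4%, 66.8% and 41.5% of the domains. A gap bin is defined by few H3K27me3 reads or a low ratio to WCE, so the rule itself favours this direction. WCE replicate 2 changed along the same order, with a density inside of 0.772, 0.878, 0.945 and 1.11 times the flanks. Median length also differed, at 12, 14, 18 and 16 kb. The parts of WCE and of length in these differences were not tested.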

How the data were processed

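Each deposited file was a list of signed read positions, 1 library per file, with no counts per feature. Per the file headers, the authors aligned reads with Bowtie to mm8 (options -e 70 -k 2 -m 2 -n 2, and -l 36 for H3K27me3 and WCE replicate 2 or -l 26 for the other 3 libraries) and listed reads with 1 placement apart from a second section, read here as reads with 2. Per the labels' protocols, fragments of 50 to 200 nt were amplified for 18 PCR cycles. For Bowtie, a version is not given in the sources.

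From the first section, reads sharing a start and strand were reduced to 1, and each was placed 60 bp downstream of its 5′ end. Removing repeats took away 7.10% to 19.0% of reads per library. Bins without a read in any library were treated as unmapped. The seed length differed between H3K27me3 and the RNA Pol II and E2F4 libraries, so places that 26 bases cannot resolve can count in one and not in the other. Reads inside regions and in their flanks were compared by exact conditional binomial tests (SciPy 1.17.1, Python 3.11.15) with Benjamini-Hochberg adjustment, and shares have exact Clopper-Pearson intervals. Reads are PCR products without molecular identifiers, so intervals cover counting error only. The procedures were tested on simulated data. Alternatives changed the read and ratio limits, joining, bin start, repeats, WCE library, scaling, flanks and control.

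The domains and lists were chosen with earlier results of these data known. Named domains are the 5 longest, the 5 densest in H3K27me3, the 5 densest in RNA Pol II and in E2F4 among those with such a region, the 3 with most gaps, the 3 largest clusters, the 3 most distant, and 3 on either side of the length limit. Domains with most RNA Pol II reads or regions were named after their values were seen.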

Additional observations from a re-analysis of the deposited data

Results flagged for a closer look

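Reads of the second section, listed at 2 places, were used in none of the domain calls. In the domains lay 15062 H3K27me3 reads of that section, 2.94% of its autosomal total, compared with 0.934% for WCE, a ratio of 3.15 (95% interval 3.06 to 3.23) that drew attention because these data stand outside the main measurement and exceed the control. For E2F4 the same ratio was 1.10 (1.05 to 1.15), and for RNA Pol II it was 0.983 (0.941 to 1.03). Against 15 to 20 kb outside, the H3K27me3 reads of this section stood at 1.25 in the first 2 kb inside the edges and 1.17 at 5 to 10 kb inside, whereas those of WCE replicate 2 stood at 0.654 and 0.568. These are reads of the same H3K27me3 library that chose the domains, so they are not an independent replicate.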

How the results depend on the processing

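Of 141 values recomputed under 12 alternatives and 1 added after seeing the data (called regions left out), 75 stayed within the 95% interval of the main value or, for counts, within 1.5 times it. The RNA Pol II ratio stayed under 1 throughout. No paired analysis was possible because each antibody has 1 library.

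The number of domains was 795 with a ratio of at least 4 and 2592 with H3K27me3 scaled on background bins, which raised every ratio by 0.38 (log2). They covered 13.81 and 57.06 Mb, and 18.03 Mb with no bin between joined bins. The share with a gap was 67.5%, 63.2% with at least 30 reads, 0% by construction without joining, 84.0% with at most 2 bins between, and 72.7% with all reads kept. The share with another domain within 100 kb was 51.7%, 73.8% with background scaling, 61.3% with 30 reads, 58.5% without joining and 67.3% with bins starting 1 kb later. The edge step was 1.86 with 30 reads and 1.80 with background scaling. Overlap fell to 4.27% for RNA Pol II and 2.53% for E2F4 at an adjusted p under 0.0001.

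The RNA Pol II ratio of domains to flanks was 0.468 with a ratio of at least 4, 0.382 with 30 reads, 0.410 without joining, 0.316 with at most 2 bins between, 0.326 with all reads, 0.284 with background scaling, 0.458 with flanks 2 to 10 kb away, 0.362 against WCE in the same places and 0.659 with called regions left out. For E2F4 these were 1.03, 0.925, 0.967, 0.796, 0.843, 0.764, 0.973, 0.906 and 1.04, and 0.829 with bins starting later. The cause of these changes was not tested. Domains with fewer RNA Pol II reads numbered 135 at a ratio of 4, 207 without joining, 649 with background scaling and 192 with near flanks. Those with fewer E2F4 reads numbered 42, 70, 284, 204 with at most 2 bins between and 60 against WCE, and those with more E2F4 reads 144 with all reads, 115 with background scaling and 22 against WCE.

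Leaving out WCE replicate 1 or 2, which leaves fewer control reads, gave 291 to 1578 domains over 4.62 to 30.9 Mb, 66.3% to 69.9% with a gap, a step of 1.71 to 2.04, and 38.1% to 64.5% near another domain. RNA Pol II regions numbered 6394 to 12891 and overlapped 3.44% to 5.07%, and E2F4 regions 1126 to 6094 and 1.37% to 3.87%. The ratio to flanks was 0.329 to 0.841 for RNA Pol II, with 58 to 344 domains fewer and 42 to 75 more, and 0.866 to 1.46 for E2F4, with 21 to 128 fewer and 68 to 77 more. In each range the extreme farther from the main value came without replicate 2. A median of 7 RNA Pol II reads per domain limits what the test of a single domain can show.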
